A study of Mus musculus with 6 samples.

Results

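Small nucleolar RNAs (snoRNAs) and small Cajal body RNAs (scaRNAs) were examined in bone marrow cells enriched for hematopoietic stem cells, from mice in which deletion of the transcription factor gene Zeb2 was induced. The members were all probe sets with exactly 1 gene symbol that starts with Snora, Snord or Scarna and a number. There were 56 such probe sets for 50 genes, of 14610 probe sets tested and 10366 genes with a probe set of their own, with 23 Snora, 29 Snord and 4 Scarna probe sets.

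The first group held 3 arrays labelled Zeb2-KO, from mice with floxed Zeb2 alleles and Mx1-Cre, and the second held 3 arrays from WT mice labelled C57Bl/6, for which no Cre is named. Mice of both groups were 6 weeks old when given pIC, a double-stranded RNA that induces interferon, and 14 weeks old when analysed 8 weeks later. Mx1-Cre is switched on by interferon in many cell types, so recombination is not confined to the sorted cells. LKS-Slam marker positive cells were sorted from bone marrow, 1 array per bone marrow sample, and the values are log2 of the deposited linear array intensities.

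SnoRNAs are short RNAs of the nucleolus that guide the chemical modification and the cutting of ribosomal RNA. Box H/ACA RNAs (Snora) direct the change of uridine to pseudouridine with the enzyme Dkc1, and box C/D RNAs (Snord) direct ribose methylation with the enzyme Fbl. ScaRNAs do the same for spliceosomal RNAs in Cajal bodies. In mammals most of them are cut from introns of host genes, many of which encode ribosomal proteins or are noncoding. An array probe set does not tell the mature small RNA from the same sequence inside an unspliced host transcript, and the labels name an amplification kit (Ovation Pico) without saying how well it copies RNAs this short.

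Annotated miRNA hairpins overlapped 2 of the members, and their RefSeq sequences (GRCm38.p6) are shown because they carry the boxes that define the classes. Mature miR-5121 starts at the first base of Snord33 and covers 21 of its 82 bases (chr7:45126925-45126945, minus strand); the capitals mark UGAUGA, the core of box C, at bases 7 to 12. The hairpin of Mir3069 lies wholly inside Scarna13, covers 65 of its 275 bases (chr12:105031077-105031141, minus strand), and holds in capitals an ACA that stands 3 bases before the annotated end of Scarna13, where box ACA is defined.
Snord33: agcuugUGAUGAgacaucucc
Scarna13: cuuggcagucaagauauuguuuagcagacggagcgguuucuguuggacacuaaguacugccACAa

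Searched on the RNA strand only, UGAUGA occurred in 2.69% of 1005 mouse hairpins and an ACA just before the last base in 6.57%. These matches are descriptions of letters; the other members had no sequence in the tables used here.

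Zeb2 itself was higher on the arrays labelled Zeb2-KO (7.79, 9.13 and 8.96) than on the WT arrays (6.58, 7.51 and 7.34), a difference of 1.48 (SE 0.40, limma adjusted p = 0.581) against the direction of the label. The deleted exons are not named, so this probe set cannot check the deletion and directions below rest on the labels. Replicate 1 of both groups stood apart from the other 4 arrays in Y-linked signal, with Eif2s3y at 6.46 in Zeb2-KO replicate 1 and 5.20 in WT replicate 1, against 3.10 to 3.38 elsewhere. The spread of all log2 values, as an interquartile range, was 1.83, 2.40 and 2.11 on the arrays labelled Zeb2-KO and 1.59, 2.03 and 1.77 on the WT arrays. Summed intensities of the measured markers did not overlap between groups for 7 of 8 B cell markers (620 to 1125 in Zeb2-KO, 1142 to 2302 in WT), 6 of 8 megakaryocyte and platelet markers (2669 to 4981 in Zeb2-KO, 717 to 1594 in WT) and 5 of 8 erythroid markers (2978 to 3391 in Zeb2-KO, 917 to 1350 in WT). The same held for 4 of 8 granulocyte markers (391 to 1373 in Zeb2-KO, 294 to 351 in WT) and 6 of 10 stromal and endothelial markers (591 to 732 in Zeb2-KO, 806 to 1107 in WT). Yet 0 of the 4 granulocyte markers were apart singly and 2 were lower, while S100a9 stood at 10.16 on Zeb2-KO replicate 1. The sums overlapped for 10 of 12 stem cell markers (4487 to 5379 in Zeb2-KO, 2879 to 5105 in WT), 7 of 8 monocyte and dendritic markers (1538 to 2330 in Zeb2-KO, 2194 to 3624 in WT) and 5 of 8 T and NK cell markers (432 to 690 in Zeb2-KO, 393 to 1100 in WT). All 7 monocyte and dendritic markers were lower singly, 3 of them with groups apart, against 13.2% of all tested that were apart. Of the 10 stem cell markers 3 were higher and 2 lower with groups apart. The part of these markers in the results on small RNAs was not tested. In sorted bulk samples fewer cells of a type and less RNA per cell cannot be told apart.

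No small RNA passed the test, while differences of single members reached 1.67 higher and -1.69 lower on the log2 scale. The limma test with Benjamini-Hochberg adjustment over all 14610 probe sets called 0 of 56 members, against 0.0137% of all tested probe sets, and the smallest adjusted p was 0.331. At an unadjusted p under 0.05 there were 12 of 56 members, or 21.4%, against 7.02% of all tested probe sets. Of the 12, 7 were higher in Zeb2-KO, 12.5% of members against 5.69% of all tested, and 5 were lower, 8.93% against 1.33%. Without both replicate 1 arrays the count was also 12, with 7 higher and 5 lower, against 8.28% of all tested. With a block for the replicate number in the fit it was 11, or 19.6%, close to the 17.8% of all tested. The groups did not overlap in 11 members, or 19.6%, against 13.2% of all tested, with 9 higher (6.9% of all tested) and 2 lower (6.26% of all tested). With quantile normalization 6 of 56 were apart, against 12.4% of all tested, and other settings are given below. A difference of at least 2-fold was seen in 16 members, or 28.6%, against 4.36% of all tested. Members also varied more between replicates, with a median within-group standard deviation of 0.71 against 0.35 over all tested. The limma test draws each variance toward a common value, so shares by p and by fold are not like for like. The part of this spread in the counts was not tested.

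**Figure D1:**
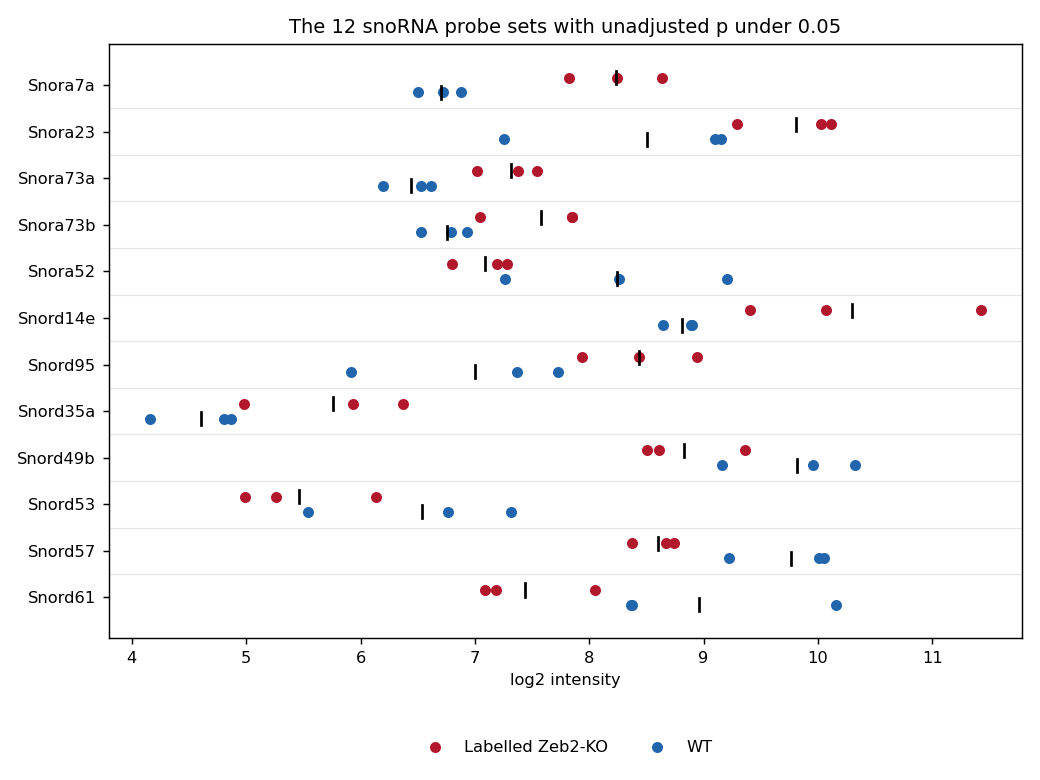
Log2 intensity (x axis) on each array for the 12 members with an unadjusted p under 0.05 (rows); red points are arrays labelled Zeb2-KO, blue points WT, and black ticks the group means. Groups overlap in Snora52, Snord49b and Snord53 and are apart in the other 9, for example Snora7a at 7.83 to 8.64 against 6.50 to 6.88.

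Among the H/ACA RNAs, Snora7a, which lies in the gene of the ribosomal protein Rpl32, had the smallest p of all members. It stood at 8.64, 7.83 and 8.24 on the arrays labelled Zeb2-KO and at 6.72, 6.88 and 6.50 on the WT arrays. Every array labelled Zeb2-KO lay above every WT array, and the difference was 1.53 (SE 0.31, limma adjusted p = 0.331), or 2.90-fold.

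Snora73a and Snora73b are copies of U17, the H/ACA RNA whose yeast counterpart is needed to cut the precursor of the small subunit RNA, and both lie in the noncoding host Snhg3. Snora73a stood at 7.37, 7.02 and 7.54 in Zeb2-KO and 6.53, 6.61 and 6.19 in WT. Snora73b stood at 7.85, 7.05 and 7.85 in Zeb2-KO and 6.93, 6.79 and 6.53 in WT. Both copies were higher in Zeb2-KO without overlap and by nearly the same amount, 0.87 (SE 0.29, limma adjusted p = 0.633) and 0.83 (SE 0.32, limma adjusted p = 0.662); copies of like sequence can share signal.

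Snora23, inside the gene of the nuclear import receptor Ipo7, stood at 10.12, 9.29 and 10.03 in Zeb2-KO and at 7.26, 9.10 and 9.15 in WT. The groups were apart, but WT replicate 1 was 1.84 below the next array, and the difference of 1.31 (limma adjusted p = 0.662) was 0.69 without it. Snora3, in the ribosomal protein gene Rpl27a, had the largest difference in its class at 1.67 and 1.65 in 2 near-identical probe sets. In the probe set with the larger difference it stood at 8.67, 9.79 and 9.43 in Zeb2-KO and spread from 5.61 to 10.28 in WT, so the groups overlapped (limma adjusted p = 0.673). This difference was 0.66 without WT replicate 3 and 2.99 without WT replicate 2.

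On the lower side of the H/ACA class, Snora52, in the gene of the ribosomal stalk protein Rplp2, was alone in reaching an unadjusted p under 0.05. It stood at 6.80, 7.19 and 7.28 in Zeb2-KO and at 7.26, 9.20 and 8.26 in WT, a difference of -1.15 (SE 0.44, limma adjusted p = 0.662), and the top Zeb2-KO value lay just above the lowest WT value. It was -0.67 without WT replicate 2 and -1.64 without WT replicate 1. Snora62, in Rpsa, stood within 6.02 to 6.15 in Zeb2-KO and at 6.96, 6.04 and 8.19 in WT, a difference of -0.98. Snora2b at -0.94, Snora69 at -0.68, Snora74a (the U19 RNA) at -0.53 and Snora70 at -0.37 overlapped between groups. Snora69 and Snora74a were lower only with WT replicate 1, which held 7.39 and 8.55; without that array the differences were 0.36 and 0.09. Without WT replicate 3 Snora62 was at -0.42 and Snora2b at -0.15.

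The members of the C/D class with the smallest p split between the directions. Snord57 lies in an intron of Nop56, itself a core protein of every C/D particle. It stood at 8.68, 8.38 and 8.74 in Zeb2-KO and at 10.01, 9.22 and 10.06 in WT, lower on every array, with a difference of -1.17 (SE 0.32, limma adjusted p = 0.581). Snord61, in the gene of the RNA-binding protein Rbmx, stood at 8.05, 7.09 and 7.18 in Zeb2-KO and at 8.37, 8.36 and 10.15 in WT. These groups were apart as well, with a difference of -1.52 (SE 0.48, limma adjusted p = 0.620) that was -0.93 without WT replicate 3.

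Snord14e is a copy of U14, a C/D RNA needed in yeast for cutting the precursor of the small subunit RNA, and lies in Hspa8, the gene of a constitutive heat shock protein. It stood at 11.43, 9.40 and 10.07 in Zeb2-KO and at 8.90, 8.89 and 8.65 in WT. The groups were apart, with a difference of 1.49 (SE 0.45, limma adjusted p = 0.606); without Zeb2-KO replicate 1, the highest array, it was 0.92. Snord95, in the gene of the ribosome scaffold protein Rack1, stood at 8.44, 7.94 and 8.94 in Zeb2-KO and at 7.73, 7.37 and 5.91 in WT. It was higher without overlap, by 1.43 (SE 0.46, limma adjusted p = 0.620), and by 0.89 without WT replicate 3.

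Snord35a and Snord33 lie in the ribosomal protein gene Rpl13a, whose snoRNAs are known from rodent cells for a part in the response to lipid overload. Snord35a stood at 6.37, 4.98 and 5.94 in Zeb2-KO and at 4.80, 4.86 and 4.16 in WT, apart by a narrow gap, with a difference of 1.15 (SE 0.39, limma adjusted p = 0.637). Snord33, whose first bases are printed above, stood at 6.80, 6.57 and 7.45 in Zeb2-KO and at 7.43, 5.80 and 6.80 in WT, with overlap and a difference of 0.26. Snord42a, in Rpl23a, was at -0.60 with overlap, and at -0.30 without WT replicate 2. Snord49b at -0.99 and Snord53 at -1.08 also had an unadjusted p under 0.05, and their groups overlapped; Snord53 was at -0.69 without WT replicate 1 and at -0.45 without both replicate 1 arrays, and lies in Wdr43, the gene of a factor for ribosomal RNA processing.

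Further C/D members were decided by single arrays. Snord16a, in Rpl4, stood at 4.64, 8.53 and 8.46 in Zeb2-KO and at 5.22, 5.96 and 5.84 in WT. Its difference of 1.54 missed the threshold with all arrays (limma adjusted p = 0.673), and without Zeb2-KO replicate 1 it was 2.83 (limma adjusted p = 0.0420), the one member call made when 1 array was left out. When the spread of each array entered the fit as a covariate, the Snord16a difference was -0.0096. Snord87, in the noncoding host Snhg6, stood at 3.51, 8.27 and 6.30 in Zeb2-KO and at 9.07, 7.25 and 6.83 in WT. That difference of -1.69 was -0.43 without Zeb2-KO replicate 1 and 0.24 without both replicate 1 arrays. Snord22 (U22, needed in frog oocytes for the small subunit RNA) and Snord38a, at 0.90 and 1.04, were 0.11 and 0.31 without WT replicate 1.

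Of the 3 brightest Snora and the 3 brightest Snord probe sets, Snora23 (1.31) and Snord14e (1.49) are described above, and the other 4 differed by 0.21 or less in size. Snord104 stood at 11.06, 11.18 and 11.37 in Zeb2-KO and 11.76, 11.48 and 10.93 in WT, a difference of -0.19 (SE 0.31). Snord82, in the gene of the nucleolar protein nucleolin (Ncl), differed by 0.01 and Snora31, in Tpt1, by 0.21. Snora75, also in Ncl, differed by 0.06, with a standard error of 0.78 and values of 7.28 to 10.35 in Zeb2-KO and 7.78 to 10.38 in WT. The scaRNAs were Scarna17 at -0.39 (11.50, 10.74 and 11.24 in Zeb2-KO, 11.43, 11.44 and 11.77 in WT), Scarna13 at -0.28 (7.31, 6.75 and 6.36 in Zeb2-KO, 6.94, 7.91 and 6.40 in WT) and Scarna8 at -0.29 (4.56, 6.66 and 4.63 in Zeb2-KO, 4.95, 6.61 and 5.18 in WT). All 3 overlapped between groups, and adjusted p ran from 0.673 to 0.796.

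As classes, the H/ACA and C/D RNAs had medians close to each other over all members, and the gap between them moved with the processing. The median difference was 0.13 over 23 Snora probe sets (13 higher, 10 lower) and 0.11 over 29 Snord probe sets (17 higher, 12 lower), against -0.09 over all tested probe sets. Snora3, Snora21 and Snora30, all higher, have 2 probe sets each and count 2 times here, as do Snord58b, higher, and Snord118, lower. Counted once per gene, the middle of the 20 Snora genes lies between Snora16a at -0.14 and Snora75 at 0.06. The sign of the Snora median thus rests on repeated probe sets. Between their quartiles the differences ran from -0.57 to 0.78 in Snora and from -0.24 to 0.90 in Snord, against -0.32 to 0.34 over all tested. At an unadjusted p under 0.05 there were 4 higher Snora (17.4%) and 3 higher Snord probe sets (10.3%), against 5.69% of all tested, and 1 lower Snora (4.35%) and 4 lower Snord probe sets (13.8%), against 1.33% of all tested. Groups were apart in 6 Snora probe sets, or 26.1%, all higher, and in 5 Snord probe sets, or 17.2%, 3 of them higher, against 13.2% of all tested. The 6 include both probe sets of Snora30, which had the same values on every array. The gap between the medians, Snora minus Snord, was 0.03 and was not tested. It was 0.57 with the filter on dim probe sets, where the Snora median was 0.58 and the Snord median 0.01. Leaving out single arrays gave gaps between -0.30, for Zeb2-KO replicate 2, and 0.51, for WT replicate 2.

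Class medians on single arrays were 7.09, 7.19 and 7.85 for Snora in Zeb2-KO and 7.02, 6.94 and 6.99 in WT. For Snord they were 5.36, 6.77 and 6.30 in Zeb2-KO and 6.23, 5.82 and 5.91 in WT. The Snora medians were a little higher on every array labelled Zeb2-KO, whereas the Snord medians overlapped, with Zeb2-KO replicate 1 the lowest of all. Both class medians depended on single arrays. The Snora median difference was 0.62 when Zeb2-KO replicate 1 was left out, -0.19 when Zeb2-KO replicate 2 was, and 0.54 without both replicate 1 arrays. The Snord median difference was -0.13 without WT replicate 2 and 0.21 without Zeb2-KO replicate 1.

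**Figure D2:**
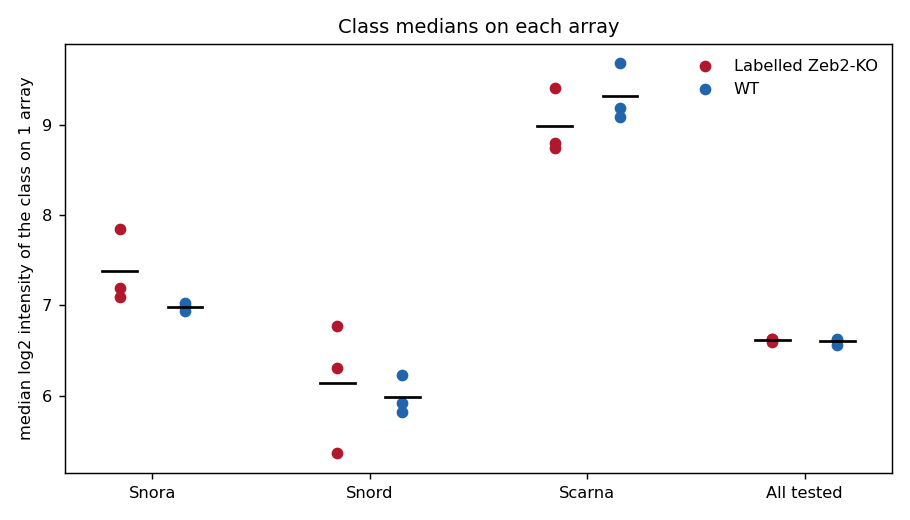
Median log2 intensity of each class on each array (y axis), with arrays labelled Zeb2-KO in red, WT in blue and group means as black lines. Snora medians are 7.09 to 7.85 in Zeb2-KO and 6.94 to 7.02 in WT, while Snord medians overlap and the medians of all tested probe sets stay between 6.56 and 6.63.

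**Figure D3:**
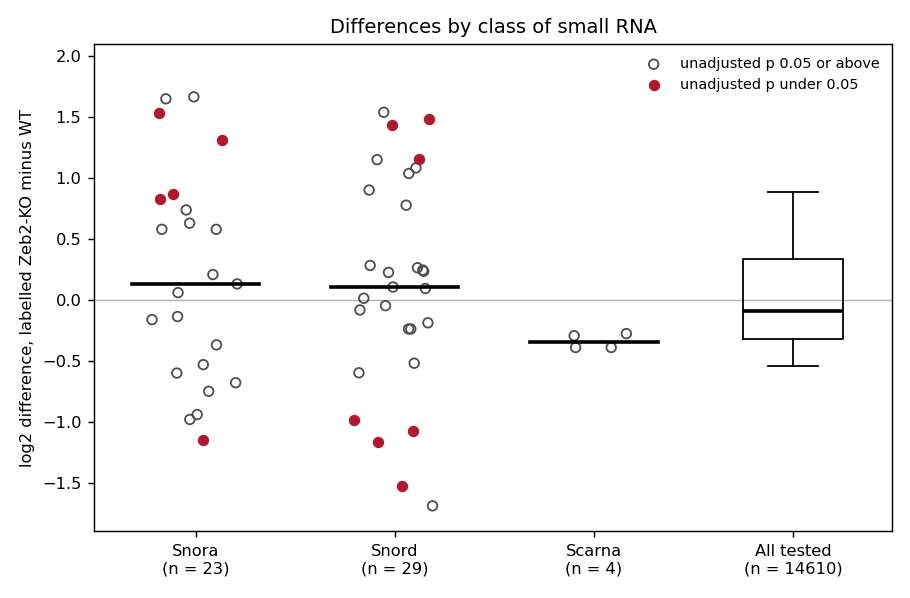
Log2 difference, arrays labelled Zeb2-KO minus WT (y axis), for each member by class, with black lines for class medians and filled points for unadjusted p under 0.05; the box shows median and quartiles and the whiskers the 5th to 95th percentile of all tested probe sets. Members reach -1.69 and 1.67, with class medians of 0.13 (Snora), 0.11 (Snord) and -0.34 (Scarna).

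Replicates of 1 group differed more for these RNAs than for most probe sets. The median within-group standard deviation was 0.71 over the 56 members, against 0.35 over all tested probe sets, and it was 1 or more in 17 members, or 30.4%, against 4.58% of all tested. It was 0.76 in Snora, 0.66 in Snord and 0.47 in Scarna. Over 149 probe sets of Mir genes, another class of short RNAs, it was 0.33. The median mean log2 of these was 6.21, against 6.84 over the members and 6.63 over all tested, and whether they were expressed was not tested. Over the 39 snoRNA probe sets with several symbols, which are no members, the median within-group standard deviation was 0.85. Of those 39, 3 reached 1 or more, and their median mean log2 was 4.05. Their lower quartile and median difference were both -0.48, so part of that set may repeat the same values. Snord37, in the elongation factor gene Eef2, stood at 7.35 on WT replicate 3 and at 2.92 to 5.21 on the others.

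**Figure D4:**
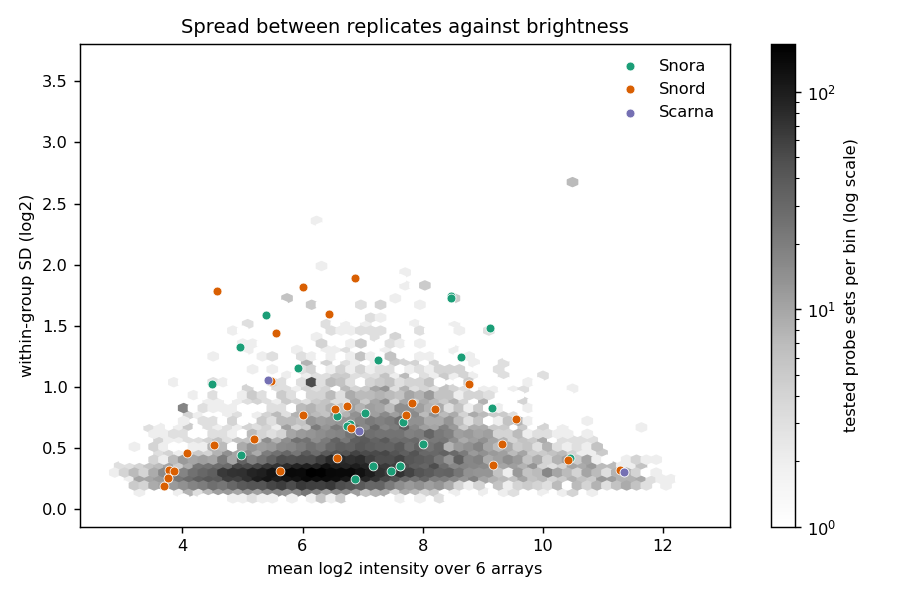
Within-group standard deviation (log2, y axis) against the mean log2 intensity over 6 arrays (x axis), with all 14610 tested probe sets as grey bins and members as coloured points. Members reach 1.89 (Snord87), and 17 of 56 lie at 1 or more.

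Of 56 members, 39 had a mean at or above the 25th percentile of all tested probe sets (5.78), with 19 of 23 Snora, 17 of 29 Snord and 3 of 4 Scarna. Below it lay Snord118 (U8, known in frog oocytes for its part in making the large subunit RNA), at 3.50, 3.76 and 3.65 in Zeb2-KO and 4.04, 4.10 and 3.49 in WT. Among RNAs described above, Snora2b (mean 4.49), Snora69 (4.96), Snora16a (4.97), Snord35a (5.18), Snord37 (4.58), Snord38a (5.48) and Scarna8 (5.43) lay below it as well. Of these, Snord35a alone had an unadjusted p under 0.05, and differences of such dim probe sets are less sure. Of 6 genes with 2 probe sets, Scarna17, Snora30 and Snord118 had the same values in both on every array, and Snora3, Snora21 and Snord58b differed by at most 0.21. Over 50 genes with 1 probe set each, 12 had an unadjusted p under 0.05, or 24%, against 7.28% of all tested with 1 probe set per gene. Groups were apart in 10 of the 50, against 13.3% of all tested in the same setting.

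SnoRNAs that share a host were set side by side, since they are cut from the same transcript. Of 8 hosts with 2 measured members, the pair had the same sign in 5 and opposite signs in 3. Among the pairs of the same sign were Snora73a and Snora73b in Snhg3 (0.87 and 0.83) and Snord33 and Snord35a in Rpl13a (0.26 and 1.15). In Rack1, Snord95 stood at 1.43 and Snord96a at -0.52, and in 2410006H16Rik, Snord49a stood at 0.78 and Snord49b at -0.99. In Rps3a1, Snord73b stood at 1.15 and Snord73a at -0.05.

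The start regions of Snhg3, of the 3 hosts with opposite signs and of Nop56 with its Snord57 are shown as RefSeq gives them (GRCm38.p6), 40 bases before and 20 after the annotated start. Capitals mark runs of 6 or more pyrimidines (C or T, on the gene's strand), since many snoRNA hosts are known to start in such a tract. The windows are chr4:132353667-132353726 (minus strand) for Snhg3, chr11:48800320-48800379 (plus) for Rack1, chr11:62602837-62602896 (plus) for 2410006H16Rik, chr3:86142649-86142708 (minus) for Rps3a1 and chr2:130274372-130274431 (plus) for Nop56.
Snhg3: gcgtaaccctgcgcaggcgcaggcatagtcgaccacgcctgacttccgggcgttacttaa
Rack1: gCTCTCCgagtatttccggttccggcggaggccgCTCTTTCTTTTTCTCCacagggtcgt
2410006H16Rik: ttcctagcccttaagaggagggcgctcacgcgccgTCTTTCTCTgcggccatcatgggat
Rps3a1: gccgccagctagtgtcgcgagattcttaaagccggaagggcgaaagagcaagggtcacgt
Nop56: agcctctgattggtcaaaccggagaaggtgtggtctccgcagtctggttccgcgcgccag

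A run was found at Rack1 and 2410006H16Rik and not at Rps3a1, Snhg3 or Nop56. Over all hosts with a window, 22 of 31 held such a run, against 55.2% of 27025 genes in the same table. Annotated starts can lie some bases from the true ones, and the hosts shown were picked for the values of their snoRNAs.

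Single-symbol probe sets carried the symbol of the host gene for 15 small RNAs in 14 hosts. Of these hosts 13 were higher in Zeb2-KO, against 44.6% of all tested and 53.1% with the filter on dim probe sets. They were bright, with a median mean log2 of 10.3 against 6.63 over all tested, and no share at like brightness was computed. Of the 14 hosts 2 (Nop56 and Tcp1) had an unadjusted p under 0.05 (7.02% of all tested), and none passed the adjusted test. The median absolute difference was 0.75 in the small RNAs and 0.37 in the hosts. The small RNA had the sign of its host in 6 of 15 pairs. Over the 15 pairs, which share arrays and in 1 case a host, Pearson's r between the differences was -0.07 and Spearman's rho -0.08. Nop56 stood at 10.00, 10.12 and 9.39 in Zeb2-KO and at 8.28, 9.53 and 8.98 in WT, a difference of 0.90 (SE 0.37, limma adjusted p = 0.673), opposite to the -1.17 of Snord57. Tcp1, a chaperonin subunit gene, stood at 0.89 and its Snora20 at -0.75, while Ipo7 (0.56) and Hspa8 (0.24) shared the sign of Snora23 and Snord14e. Several of these hosts encode ribosomal proteins with many processed copies in the genome, so their probe sets may catch signal from copies. For Rpl27a, Rpsa and Rpl10 the identifier of the probe set used lies far from that of the snoRNA, unlike for the other hosts. These probe sets may stand for a copy and not for the host itself.

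**Figure D5:**
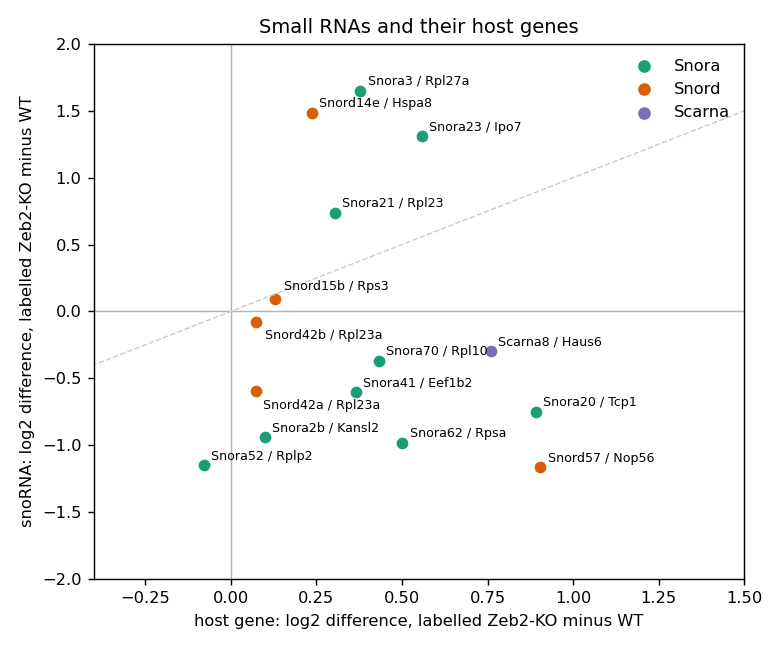
Log2 difference (arrays labelled Zeb2-KO minus WT) of each small RNA (y axis) against that of its host gene (x axis) for 15 pairs; colours give the class and the dashed line marks equal differences. Hosts lie between -0.08 and 0.90, while small RNAs spread from -1.17 to 1.65.

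Genes of the proteins that bind the guides were higher in Zeb2-KO in the fit without a covariate, and none passed the test. With array spread as a covariate 2 of 4 C/D core and 1 of 3 H/ACA core genes were higher, against 49.0% of all tested. Without it all 4 measured genes of the C/D core were higher, against 44.6% of all tested, with a median of 0.47. The methyltransferase gene Fbl stood at 10.18, 10.36 and 10.17 in Zeb2-KO and at 8.96, 9.89 and 9.67 in WT, apart, with a difference of 0.73 (SE 0.31, limma adjusted p = 0.673). Nop56 is given above, Nop58, its partner, was at 0.20 and Snu13, which binds the RNA turn that box C forms, at 0.14, with its other probe sets at -0.10, 0.07 and -0.14. All 3 measured genes of the H/ACA core were higher, with a median of 0.31. The pseudouridine synthase gene Dkc1 stood at 8.57, 9.49 and 9.17 in Zeb2-KO and at 7.98, 8.83 and 7.94 in WT, a difference of 0.83 (SE 0.36, limma adjusted p = 0.673), and Nop10 and Gar1 were at 0.31 and 0.15. The 3 of 7 core genes with an unadjusted p under 0.05, set against 7.02% of all tested, were Fbl, Nop56 and Dkc1. With array spread as a covariate the count was 0, against 5.13% of all tested. It was also 0 when either Zeb2-KO replicate 2 or WT replicate 1 was left out, 1 when Zeb2-KO replicate 1, Zeb2-KO replicate 3 or WT replicate 3 was, and 1 without both replicate 1 arrays, and quantile normalization turned Snu13 and Gar1 to -0.03 and -0.07.

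In the wider pathway no gene passed the adjusted test. Counts of higher genes below stand against 44.6% of all tested probe sets that were higher, or 53.1% with the filter on dim probe sets. Of 26 measured genes for RNA polymerase I and ribosomal RNA processing, 21 were higher, with a median of 0.36, and 6 of them had an unadjusted p under 0.05, all higher, against 5.69% of all tested. Utp15, a factor of the small subunit processome, was at 1.67, and Polr1e, a subunit of RNA polymerase I, at 0.89. With array spread as a covariate 16 of the 26 were higher, against 49.0% of all tested. In that fit 1 higher and 1 lower gene had an unadjusted p under 0.05, and 2.51% of all tested were higher at that p. With 1 array left out, 3 to 8 higher genes were at that p, against 2.86% to 9.14% of all tested. Of 9 measured assembly factors 8 were higher (median 0.24). Of 14 genes of snoRNA trimming and decay 11 were (median 0.35), among them the exosome gene Exosc7 at 1.31. Of 6 genes listed for Cajal body and nucleolar proteins 5 were (median 0.41). With array spread as a covariate these counts were 4 of 9, 7 of 14 and 5 of 6. In the last list 1 gene had an unadjusted p under 0.05, against 1.33% of all tested that were lower at that p. It was Sp100, lower at -0.66 with groups apart (limma adjusted p = 0.673). Of 7 measured noncoding snoRNA host genes 6 were lower (median -0.42), with Gas5 at -0.08 (0.70 in its second probe set), Snhg15 at -0.62 and Snhg5 alone higher at 0.55; with array spread as a covariate 4 of 7 were lower.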

How the data were processed

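Total RNA was amplified with the Ovation Pico kit and hybridised to Affymetrix arrays, per the labels' protocols. The deposited intensity values were made with RMA, per the submitters' processing notes; no RMA version is named in the sources used here. The values lie on a linear scale, so log2 was taken. Of 20220 probe sets, 5610 with identifiers below the first annotated one carry no gene and were left out as controls. Names come from the platform annotation, and all 56 members were found in a RefSeq gene table (GRCm38.p6), in which a host is the shortest gene that spans the snoRNA; strand was not checked, and 1 host is not reported here. Zeb2-KO and WT arrays were compared by lmFit and eBayes of limma 3.58.1 under R 4.3.3. Adjustment was by Benjamini-Hochberg over 14610 probe sets, and the code was tested on simulated data. Differences are on the log2 scale, positive where Zeb2-KO is higher, and SE is the standard error from limma; within-group standard deviations pool both groups.

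Members, gene lists and rules were chosen with earlier results of these data known. The named RNAs are the 6 of the smallest unadjusted p in each direction in Snora and Snord, the 3 brightest of each class and all Scarna, with the core proteins and measured hosts. Other RNAs were named after their values were seen: Snora16a, Snora20, Snora21, Snora30, Snord33, Snord37, Snord49a, Snord58b, Snord73a, Snord73b, Snord96a and Snord118. For other genes the probe set with the highest mean stands for the gene. Utp15, Polr1e, Exosc7, Sp100, Gas5, Snhg15 and Snhg5 were picked after their values were seen. Probe sets with several symbols (39 with a snoRNA) were left out. The planned search for box C at snoRNA starts was not made, since the start-window table used here holds 0 of these genes. The number of arrays limits the precision, and since the labels do not say how many mice gave each bone marrow sample, p-values measure the spread between these samples only.

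Alternatives were a filter on dim probe sets (25th percentile), quantile normalization, median centring, array weights, a variance prior with a trend or made robust, a block for the replicate number, the interquartile range as a covariate, control probe sets included, 1 probe set per gene and each array left out. Both arrays with raised Y-linked signal were left out together as an alternative chosen after seeing the data.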

Additional observations from a re-analysis of the deposited data

How the results depend on the processing

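The count of members past the adjusted test stayed at 0 under every alternative run except array weights, where limma reported that its tolerance was not reached and where it was 14 (13 of the named members, with 6.69% of all tested probe sets called), and the left-out arrays, where it ran from 0 to 1, as did that of the named members. The count at an unadjusted p under 0.05 was 26 with array weights, where 32.8% of all tested passed, and 9 to 16 with 1 array left out, where 3.68% to 11.4% did. The replicate block gave 11 members at that p, or 19.6%, close to the 17.8% of all tested, and moved the host genes at that p to 5 of 14. Both groups hold the same replicate numbers, so the block cannot change a difference, only its standard error and p. Every array correlated best with its own number, a hint from the data only. Deviations of same-numbered arrays from their group means correlated by 0.360, 0.414 and 0.047, each the highest for its Zeb2-KO array. Arrays of unlike number correlated by -0.375 to 0.030, and both replicate 1 arrays held the raised Y-linked signal. The labels do not say what the replicate number stands for, so the main fit treats the arrays as unpaired. It leaves out any factor that same-numbered arrays share. The Snora median was 0.58 with the dim filter, 0.48 with array weights, 0.54 without both replicate 1 arrays and -0.19 to 0.62 with 1 array left out; the Snord median ran from -0.13 to 0.21, and the gap between them was 0.57 with the dim filter and -0.30 to 0.51 with 1 array left out. Members without overlap numbered 6 with quantile normalization (12.4% of all tested), 15 to 19 with 1 array left out (16.6% to 45% of all tested) and 24 without both replicate 1 arrays (50% of all tested), where fewer arrays make overlap rarer. Of 7 core protein genes, 1 had an unadjusted p under 0.05 with a trended prior, against 6.73% of all tested. The count was 0 with the interquartile range (5.13% of all tested) or the controls included (5.50%). It was 1 without both replicate 1 arrays (8.28%) and 0 to 3 with 1 array left out (3.68% to 11.4%). Of 14 host genes, 1 had such a p with quantile normalization (6.29% of all tested) or a trended prior (6.73%). With array weights 4 did, where 32.8% of all tested passed. None did with the interquartile range, the controls included or both replicate 1 arrays out, and 0 to 3 did with 1 array left out, with the shares of all tested just given.

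The cause of the changes of sign was not tested. With quantile normalization Snora75 was -0.13, Snord82 -0.17, Snu13 -0.0305 and Gar1 -0.0725, and with centring Snord82 was -0.0045. With array weights Snora74a was 0.0668, Snora70 0.11, Snord104 0.17, Snord82 -0.18, Nop10 -0.17 and Gar1 -0.16. With the interquartile range Snord16a was -0.0096, Snord38a -0.0189, Snora75 -1.23, Snord82 -0.14, Nop58 -0.0557, Snu13 -0.30, Nop10 -0.29 and Gar1 -0.11. Without both replicate 1 arrays Snora74a was 0.21, Snora69 0.60, Snord87 0.24, Snord104 0.0712 and Gar1 -0.0652. With 1 array left out the ranges of differences that changed sign were -0.88 to 0.0905 for Snora74a, -0.63 to 0.0350 for Snora70, -1.22 to 0.36 for Snora69, -0.60 to 0.997 for Snora75, -0.22 to 0.21 for Snord82, -0.62 to 0.14 for Scarna13, -0.98 to 0.22 for Scarna8, -0.0579 to 0.40 for Snu13, -0.0489 to 0.65 for Nop10 and -0.0412 to 0.30 for Gar1.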
